A study of Mus musculus with 2 samples.

Results

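The 541 DNA methylation valleys of wild-type (WT) osteoblasts were selected on their WT CG methylation. A 1 kb autosomal window counted as low when it held at least 10 CG cytosines with calls, at least 40 calls and a pooled level at or below 10% in the WT library, and a valley was an unbroken run of at least 4 kb of such windows. The 541 valleys took up 2918 of 1469244 windows with enough cytosines and calls in WT. They held 12.1% of the 24110 low windows and covered 0.118% of the autosomes. Whole genome bisulfite sequencing (WGBS) was run on primary osteoblasts from 3-day-old C57BL/6 mice after 3 days of culture, with 1 library for WT and 1 library for TCKO. TCKO cells came from Tet1fl/fl Tet2fl/fl Tet3fl/fl mice crossed with Prx1-Cre, whose promoter drives the recombinase in limb and skull mesenchyme, so that cells of other origin in the culture keep the Tet genes. Expression of osteoblast markers was not analysed here. In the stretch of each gene where TCKO calls were most depleted, Tet1 had 755 calls in WT and 70 in TCKO, Tet2 had 122 and 13, and Tet3 had 133 and 9.

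DNA methylation valleys are long stretches in which CG dinucleotides stay largely unmethylated, far beyond the length of a usual CpG island. They are known to lie over genes for transcription factors and signalling proteins that pattern the embryo, where Polycomb complexes often hold the genes silent. Some lie over genes that a cell type uses strongly. TET enzymes oxidize methylated cytosine, which leads to demethylation, and bisulfite sequencing reads methylated and hydroxymethylated cytosine alike.

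Stretches of 200 bp from 6 valleys show what these regions look like. The first 4 are the stretches with the largest gain in TCKO in valleys at 3 matrix genes and at a noncoding RNA gene, and the last pair are from the longest valleys, which stayed low. They are the plus strand of GRCm38 with CG dinucleotides in capitals.
Col1a2, chr6:4509601-4509800, overlapping an exon: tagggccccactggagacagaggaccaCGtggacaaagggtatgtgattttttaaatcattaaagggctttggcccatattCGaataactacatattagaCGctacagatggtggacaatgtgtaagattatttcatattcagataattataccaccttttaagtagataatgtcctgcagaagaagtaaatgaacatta
Col1a1, chr11:94938801-94939000, intron: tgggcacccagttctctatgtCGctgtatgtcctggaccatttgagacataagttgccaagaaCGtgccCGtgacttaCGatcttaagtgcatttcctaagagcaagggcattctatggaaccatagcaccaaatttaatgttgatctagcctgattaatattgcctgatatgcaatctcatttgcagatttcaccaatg
Thbs1, chr2:118113401-118113600, overlapping an exon: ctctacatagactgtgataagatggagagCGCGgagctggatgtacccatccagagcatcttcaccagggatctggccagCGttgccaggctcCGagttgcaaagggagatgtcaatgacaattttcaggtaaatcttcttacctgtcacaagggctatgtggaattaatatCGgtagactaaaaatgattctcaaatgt
Lncppara, chr15:85673601-85673800, intron: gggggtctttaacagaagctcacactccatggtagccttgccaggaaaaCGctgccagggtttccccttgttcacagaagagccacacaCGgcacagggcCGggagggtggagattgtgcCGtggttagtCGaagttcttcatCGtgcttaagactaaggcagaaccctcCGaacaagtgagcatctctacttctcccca
Hoxb8 to Hoxb6, chr11:96278801-96279000, between genes: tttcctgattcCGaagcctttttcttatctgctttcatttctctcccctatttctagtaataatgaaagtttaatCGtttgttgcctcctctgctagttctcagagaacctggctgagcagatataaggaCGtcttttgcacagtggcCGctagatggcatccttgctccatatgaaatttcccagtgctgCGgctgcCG
Pax6, chr2:105661601-105661800, intron of the antisense gene Pax6os1: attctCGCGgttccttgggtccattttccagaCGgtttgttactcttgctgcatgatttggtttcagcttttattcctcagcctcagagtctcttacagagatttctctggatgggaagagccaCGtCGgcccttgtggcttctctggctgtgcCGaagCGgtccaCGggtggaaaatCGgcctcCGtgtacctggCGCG

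In the Col1a2 stretch, which has 3 CpGs, 10.2% of 59 WT calls and 70.3% of 37 TCKO calls were methylated. The Col1a1 stretch, with 4 CpGs, went from 2.27% of 88 calls to 36.5% of 52 calls, and the Thbs1 stretch, with 5 CpGs, from 12.9% of 31 calls to 80.6% of 31 calls. The Lncppara stretch, with 7 CpGs, read 5.08% of 59 calls in WT and 90.0% of 20 calls in TCKO. The Hoxb stretch, with 6 CpGs, had no methylated call among 105 WT and 103 TCKO calls. The Pax6 stretch, with 12 CpGs, read 3.66% of 82 calls and 0% of 75 calls. These stretches were picked for their values, so they illustrate the valleys and support nothing.

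The WT library held 250877554 autosomal CG calls and the TCKO library 214609823, with autosomal levels of 70.4% and 76.6%. A single cytosine had a median of 4 calls in both libraries. Valleys had a median of 950 WT calls (271 to 13229) and 790 TCKO calls (192 to 12387). In 7 valleys the WT calls per CpG exceeded 3 times the median of 4.48, with the highest value of 174 in a 5 kb valley on chromosome 1 that overlaps only noncoding genes. The intervals given here are 95% Wilson intervals and cover counting error only, since there is no replicate library. They and the tests below take each call as independent, although a read can hold several calls. Intervals may therefore be too narrow and p values too small.

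Most valleys were short. The length was 4 kb in 268 valleys, at least 7 kb in 104 and at least 10 kb in 29, up to 23 kb, and 125 valleys lay within 20 kb of another. The median CpG density was 45.5 per kb (10.8 to 123), and the median GC content was 54.8%. Repeat-masked bases took up a median of 12.1% of a valley, against 21.7% of a testable autosomal window. The annotated 5′ end of a protein-coding gene lay in 393 valleys (72.6%), and 439 of 20807 autosomal protein-coding genes (2.11%) started in a valley. A further 82 valleys lay inside or over a protein-coding gene without its 5′ end, 39 overlapped noncoding genes only and 27 overlapped no gene. In all, 53 protein-coding genes lay wholly inside a valley, among them Hoxb8, Hoxb7, Uncx, Hmx3, Zic2, Sox2, Olig2 and Nog.

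Developmental regulators were frequent among the genes that started in valleys. Of the genes in 7 lists of developmental transcription factors, 119 of 321 (37.1%) did so. Hox genes, which set position along the body axis, gave 27 of 39 (69.2%), and the list of Gata, Zic, Gli, Sall, Tfap2, Ebf and Nr2f genes gave 15 of 28 (53.6%). Other homeobox genes gave 46 of 129 (35.7%), Sox genes 6 of 18 (33.3%), developmental basic helix-loop-helix (bHLH) genes 14 of 50 (28.0%), Fox genes 9 of 41 (22.0%) and T-box genes 2 of 16 (12.5%). Ligands of the Wnt, Bmp, Gdf, Fgf and hedgehog families gave 8 of 66 (12.1%), and their inhibitors and receptors gave 5 of 42 (11.9%), which were Nog, Bmpr2, Fst, Fzd2 and Fzd7. Genes of osteoblast differentiation and matrix gave 4 of 42 (9.52%). None of 78 ribosomal protein genes, 1087 olfactory receptor genes, 9 Tet and Dnmt genes or 4 Runx family genes started in a valley. The lists were chosen with earlier results of these data known, and the shares are read beside the 2.11% of all protein-coding genes.

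Pooled over all valleys, the CG methylation level was 2.62% in WT (2.58 to 2.66; 619230 calls) and 4.26% in TCKO (4.20 to 4.31; 516100 calls). The WT level chose the valleys, so the difference of 1.64 percentage points is a description and got no test. Over single valleys the median level was 2.40% in WT and 3.81% in TCKO, with a median difference of 1.01 points. In 428 valleys (79.1%) the level was higher in TCKO. The difference reached 5 points in 66 valleys and 10 points in 25, the lowest was -1.97 points, and 37 valleys had a TCKO level above 10%. When cytosines of the plus strand chose the valleys and those of the minus strand measured them, 510 valleys read 3.46% in WT and 4.95% in TCKO, a difference of 1.49 points. In valleys chosen by the same rule from the TCKO library, the levels lay side by side at 2.86% in TCKO and 2.83% in WT.

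**Figure D1:**
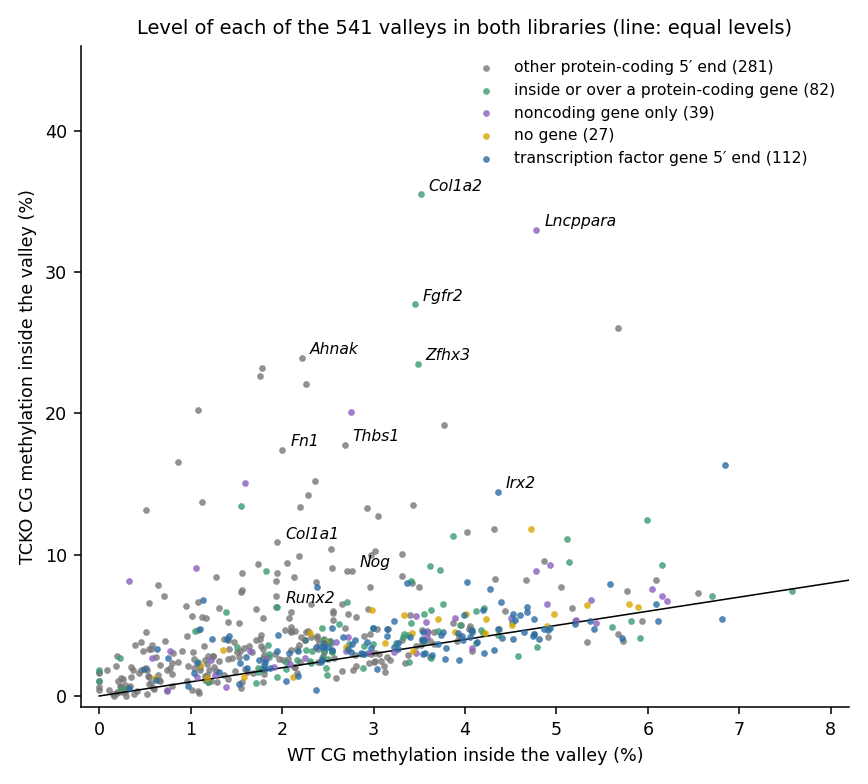
CG methylation inside each of the 541 valleys in WT (x axis, %) and TCKO (y axis, %), with 1 point per valley coloured by the gene it overlaps and the line of equal levels. Most points lie close to the line, while Col1a2, Lncppara and Fgfr2 stand above 27% in TCKO. The 112 valleys at the 5′ end of a listed transcription factor gene reach at most 16.4%.

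Valleys at genes of the osteoblast differentiation and matrix list had some of the largest differences. The 4 valleys at the 5′ ends of Col1a1, Fn1, Thbs1 and Cdh11 stood at medians of 2.34% (WT) and 15.1% (TCKO), while the 393 valleys with any protein-coding 5′ end had medians of 2.16% and 3.61%. Both type I collagen genes held a valley. The valley with the largest difference of all was that of Col1a2, which codes for the alpha 2 chain of type I collagen (chr6:4505001-4510000, 5 kb). Its level was 3.52% in WT (2.35 to 5.22; 654 calls) and 35.5% in TCKO (31.7 to 39.5; 572 calls). It starts just inside the gene, since the window with the annotated 5′ end at position 4504814 read 13.9% in WT and 47.5% in TCKO. However, 2 of the 7 distinct annotated Col1a2 transcript starts lie in the valley. Along the gene, its 5 windows read 0%, 0%, 0%, 8.15% and 9.09% in WT. In TCKO the same windows read 2.86%, 6.53%, 30.1%, 71.9% and 76.8%. At or below 10% in TCKO were the windows with 31 and 22 CpGs, and the other windows had 6 or 7 CpGs. No window of it lay in a TCKO valley.

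The Col1a1 valley (chr11:94936001-94940000, 4 kb), at the gene for the alpha 1 chain, read 1.95% in WT (1.14 to 3.31; 667 calls) and 10.9% in TCKO (8.62 to 13.6; 598 calls). Its 4 windows read 0.699%, 0%, 2.22% and 4.44% in WT and 3.36%, 0%, 12.8% and 24.1% in TCKO, and the higher TCKO windows were the pair farthest into the gene. The 5 kb beyond its downstream end read 12.5% in WT and 59.5% in TCKO. Windows there were thinly covered, and those with enough calls read 7.14% and 17.9% in WT and 45.2% and 74.2% in TCKO, at adjusted p values of 0.00156 and 5.34e-11. These come from a 2-sided Fisher exact test of the calls, adjusted by Benjamini-Hochberg across 1351907 windows, which sets 1 library against the other and has no replicates of a genotype. The second window upstream of the valley was also low in WT, at 7.55%, but was separated from it by a window of 13 WT calls, and it read 55.2% in TCKO.

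Thbs1 codes for thrombospondin 1, a secreted matrix protein, and its valley (chr2:118110001-118115000, 5 kb) read 2.69% in WT (1.84 to 3.91) and 17.8% in TCKO (15.3 to 20.5). The TCKO library was higher at both ends of this valley and near the WT level in its centre. The 5 windows read 7.61%, 0.265%, 0.727%, 5.15% and 8.66% in WT and 35.2%, 2.03%, 2.27%, 49.0% and 33.6% in TCKO. Fn1 codes for fibronectin, and its valley (chr1:71651001-71656000, 5 kb) read 2.00% in WT (1.22 to 3.28) and 17.4% in TCKO (15 to 20.2). The windows at its ends differed most, with 3.74% in WT and 19.6% in TCKO at the end inside the gene and 7.14% and 66.3% at the other, while the window of 53 CpGs in its centre read 0% and 0.794%. The edge beyond the Fn1 5′ end was high in both libraries, at 86.5% and 89.5%, and the edge inside the gene read 54.7% and 85.6%. Cdh11 codes for a cadherin known from osteoblasts, and its valley (chr8:102781001-102787000, 6 kb) read 3.05% (2.24 to 4.14) and 12.8% (10.7 to 15.1). There the difference lay in the 2 windows farthest into the gene, which went from 5.03% to 27.5% and from 5.50% to 38.1%.

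Runx2 codes for the transcription factor that sets the osteoblast fate. The annotated 5′ end of the gene was not in a valley, but a 6 kb valley lay inside the gene (chr17:44733001-44739000). Of the 11 distinct annotated transcript starts of Runx2, 6 lie in this valley. It read 1.95% in WT (1.34 to 2.82; 1385 calls) and 6.31% in TCKO (5.17 to 7.69; 1442 calls). The 3 windows with 58 to 85 CpGs had no methylated call in either library, and the window at the end toward the gene body, with 15 CpGs, went from 4.40% to 25.2%. The 5 kb beyond that end read 28.6% in WT and 66.2% in TCKO, and the 5 kb beyond the other end read 76.7% and 80.6%. The second window outside the gene-body end read 23.7% and 65.1% (adjusted p = 4.86e-09 by the Fisher exact test).

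**Figure D2:**
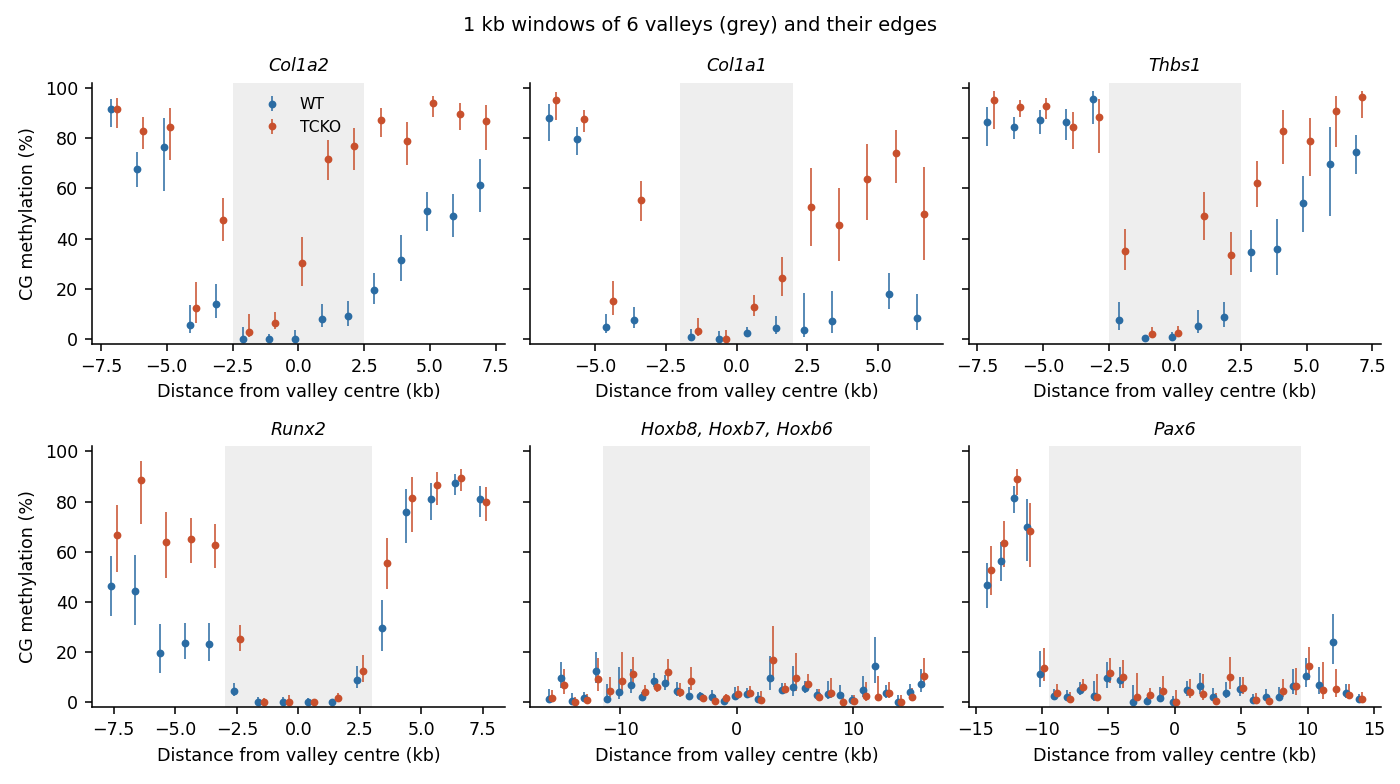
CG methylation (%) of 1 kb windows across 6 valleys (grey) and the 5 kb on each side, by distance from the valley centre (kb), in WT and TCKO, with 95% Wilson intervals for counting error. Windows with under 20 calls are not drawn. In Col1a1, Thbs1 and Runx2 the TCKO points leave the WT points toward a valley end. In Col1a2 they do so from the central window on, and also in the edge window before the valley. In the Hoxb and Pax6 valleys both stay low along the whole length.

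The other valleys with the largest differences were at genes of several kinds. Fgfr2 codes for a fibroblast growth factor receptor of skeletal cells, and its valley (chr7:130261001-130266000) read 3.45% in WT (2.29 to 5.17) and 27.7% in TCKO (24.4 to 31.3). Of the 14 distinct annotated transcript starts of Fgfr2, 2 lie there. Its windows fell into 2 blocks, with 3 windows toward the gene body at 73.6%, 35.9% and 26.5% in TCKO and the remaining windows at 0% and 0.806%. The valley over the noncoding gene Lncppara on chromosome 15 read 4.78% (3.26 to 6.96) and 33.0% (28.6 to 37.8). The valley of Ahnak, a gene for a very large scaffold protein, read 2.21% (1.02 to 4.75) and 23.9% (19.8 to 28.7). Those of Trappc3, for a subunit of a vesicle transport complex, and Epb41l2, for a membrane skeleton protein, read 1.78% and 1.76% in WT and 23.2% and 22.6% in TCKO. These last 3 valleys had 4 windows each.

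A gain was called where a window differed by at least 20 points at an adjusted p below 0.05 by the Fisher exact test. Over all 1351907 testable windows, 9.29% had a gain in TCKO and 0.129% a loss. In valleys, 79 of 2832 testable windows (2.79%) had a gain by the same test, and 60 valleys held at least 1 gained window. A valley window is at or below 10% in WT by choice, so a loss of 20 points was impossible there and none was called. No meaning is read from these shares against all windows. Low windows outside valleys, chosen by the same WT limit, had a gain in 13.0% of 20267. The share was 20.2% of 10453 windows in runs of 1 kb and 5.22% of 9814 windows in runs of 2 to 3 kb. In valleys of 4 kb it was 3.07%, in those of 5 to 6 kb 4.14%, in those of 7 to 9 kb 1.79%, and in those of 10 kb or more 0.278%, which was 1 window of 360.

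The gains sat at CpG-poor windows. The 79 gained windows had a median of 13 CpGs and went from 5.54% to 41.4%, and the other testable valley windows had a median of 41 CpGs. At up to 15 CpGs, 14.4% of 362 valley windows had a gain, against 69.8% of 1893 windows in runs of 1 kb and 33.1% of 649 in runs of 2 to 3 kb. At 16 to 30 CpGs the shares were 3.33%, 32.9% and 10.8%. At 31 to 50 CpGs they were 0.372%, 3.27% and 2.63%. At over 80 CpGs they were 0.292%, 0.289% and 0.294%, with no order by run length. Run length was set by the same WT levels from which a gain is measured, so these shares are a description. At up to 15 CpGs the pooled WT level was 4.23% in valleys, 5.97% at 1 kb and 5.25% at 2 to 3 kb. The windows of long and short runs may differ in more than CpG density, and such differences were not tested.

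**Figure D3:**
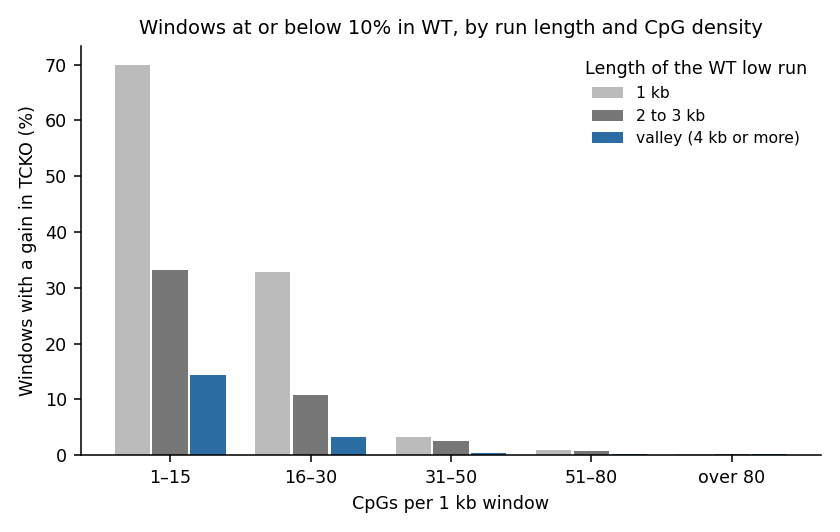
Share (%) of testable 1 kb windows at or below 10% in WT with a gain in TCKO, by CpGs per window and by the length of the WT low run (bars). Run length was set by the WT levels, from which the gain is also measured. At up to 15 CpGs the share is 69.8% for runs of 1 kb, 33.1% for 2 to 3 kb and 14.4% in valleys, and above 80 CpGs it is under 0.3% in each.

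Gains also sat near the ends. The first window from a valley end read 3.52% in WT and 6.52% in TCKO, with a gain in 5.89%. The second read 1.84% and 2.87%, and windows farther in read 2.59% and 3.19%, with a gain in 0.678%. In the 352 valleys with 1 protein-coding 5′ end, none of the 342 testable windows holding that 5′ end had a called gain (their levels were 1.35% and 1.86%). Windows downstream of the 5′ end had a gain in 36 of 957 cases (3.76%), and windows upstream in 12 of 553 (2.17%). In valleys of listed transcription factor genes these were 2 of 344 (0.581%) downstream and 2 of 242 (0.826%) upstream. In those of other genes they were 34 of 613 (5.55%) and 10 of 311 (3.22%). The windows with the 5′ end had a median of 67 CpGs, those downstream 43 and those upstream 34.

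Valley windows were searched on both strands for the Runt string AACCACA and the AP-1 string TGANTCA. The Runt string was found in 12.7% of valley windows, in 29.1% of the 79 gained windows and in 22.1% of all testable windows. The AP-1 string was found in 14.1%, 30.4% and 26.8%. In valley windows of up to 15 CpGs, nearer to the gained windows in CpG density, the shares were 20.2% (Runt) and 22.0% (AP-1). A match is a description of letters and not a binding site, and the windows differ in base composition.

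Valleys of the listed transcription factor genes differed less between the libraries than those of the remaining protein-coding genes. The remaining genes include transcription factors outside the 7 lists, such as Hmx3, Fezf1 and Klf6. The 112 valleys at the 5′ end of a gene in the 7 lists read 3.26% in WT and 3.91% in TCKO, a difference of 0.65 points. The 281 valleys at the 5′ end of another protein-coding gene read 2.03% and 4.17%, a difference of 2.14 points. A difference of 5 points was reached by 4 of the 112 and 46 of the 281. Transcription factor valleys were longer, with a median of 6 kb against 4 kb, but among valleys of 4 kb alone the differences were 1.01 points in 28 transcription factor valleys and 2.68 points in 170 others. Among the 180 valleys with the lowest CpG density, under 38.4 per kb, they were 0.40 points in 42 transcription factor valleys and 4.31 points in 51 others. With 1 library per genotype these class differences could not be tested.

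The 6 longest valleys were at homeobox genes. The first of them, of 23 kb, spanned the 5′ ends of Hoxb8, Hoxb7 and Hoxb6 (chr11:96274001-96297000) and read 3.73% (3.27 to 4.26) in WT and 4.29% (3.76 to 4.90) in TCKO. The valley of Pax6, a regulator of eye and brain development, was 19 kb long and read 3.39% and 4.16%. The valleys of Uncx, a regulator of the vertebral column, and of Hmx3 and Hmx2, regulators of the inner ear, were both 17 kb long and read 4.08% and 4.56%, and 3.92% and 3.87%. Those of Onecut2 and of Hoxc11, Hoxc10 and Hoxc5 were 16 kb long and read 2.76% and 3.12%, and 3.97% and 4.22%. In each of these 6 valleys the intervals of the 2 libraries overlapped. Of the valleys of 10 kb or more, those with the lowest difference were at Tfap2d (2.05% and 1.07%), Fezf1 (4.08% and 3.19%), Foxb1 (2.18% and 1.44%) and the noncoding gene Gm20467 (4.08% and 3.41%), where TCKO was the lower library.

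The Hoxa, Hoxb, Hoxc and Hoxd clusters held 7, 9, 10 and 7 valleys. From the first to the last gene, valleys took up 38.7% of the Hoxa windows, 41.1% of Hoxb, 50.9% of Hoxc and 44.9% of Hoxd. Inside them the levels in WT and TCKO were 4.16% and 4.69% in Hoxa, 3.87% and 4.45% in Hoxb, 3.50% and 3.95% in Hoxc, and 4.95% and 4.62% in Hoxd. The windows between the valleys of the clusters had pooled WT levels above the 10% limit, at 14.2% in Hoxa, 34.8% in Hoxb, 10.2% in Hoxc and 24.5% in Hoxd. In TCKO they read 14.0%, 36.6%, 9.76% and 25.7% in TCKO. No valley window of the 4 clusters had a called gain by the Fisher exact test. Hoxa13, Hoxd12 and Hoxd11, which act in the distal limb, lay in valleys of 8 and 11 kb that read 4.68% and 6.33%, and 4.55% and 5.39%.

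Other lists were low in both libraries with few exceptions. Among homeobox genes outside the clusters, the median valley read 3.06% and 3.46%, and Pax2 (2.77% and 3.71%) was a typical member. Irx2 and Irx4 were the exceptions at over 5 points in this list, with 4.36% and 14.5%, and 6.85% and 16.4%. Valleys without the 5′ end of a listed gene, such as the internal valley of Zfhx3 (3.49% and 23.5%), are not counted here. Fox gene valleys had medians of 4.36% and 4.05% and a median difference per valley of 0.39 points, higher in TCKO, with Foxa1 at 4.36% and 4.75%, Foxd3 at 4.93% and 4.79% and Foxb2 at 2.86% and 3.08%. Of the Sox genes, Sox14 (3.92% and 4.44%) and Sox2 (5.20% and 5.08%) stayed near their WT level. Sox17 was lower in TCKO, at 3.93% (2.91 to 5.29) and 2.55% (1.69 to 3.83), with overlapping intervals. Sox4, which osteoblast progenitors use, read 1.11% (0.732 to 1.67) and 4.77% (3.91 to 5.82). Both T-box valleys, Tbx20 and Eomes, differed by under 0.1 points. Zic2 read 0.97% and 0.73%, Tfap2b 3.53% and 3.99%, and Gata6 2.99% and 4.78%.

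The developmental bHLH valleys had medians of 2.53% and 4.54%, and all 14 were higher in TCKO. The longest, at Neurod2, Olig2, Hand2 and Neurog3, differed by 0.42, 0.97, 0.68 and 0.11 points. The members past 5 points were Id3, an inhibitor of bHLH factors, at 1.14% and 6.76%, and Twist1, a regulator of skull mesenchyme, at 2.38% and 7.74%. Among ligands, Shh read 2.16% and 3.31%, Fgf9 1.19% and 0.98%, Inhbb 4.44% and 6.04% and Gdf6 2.96% and 4.42%. Of the inhibitors and receptors, Nog, an antagonist of BMPs, read 2.76% (1.97 to 3.85) and 8.87% (7.17 to 10.9), and Bmpr2, a BMP receptor, 2.93% (2.02 to 4.23) and 13.3% (10.9 to 16). Fst and Fzd2 read 1.54% and 3.19%, and 1.62% and 1.69%.

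**Figure D4:**
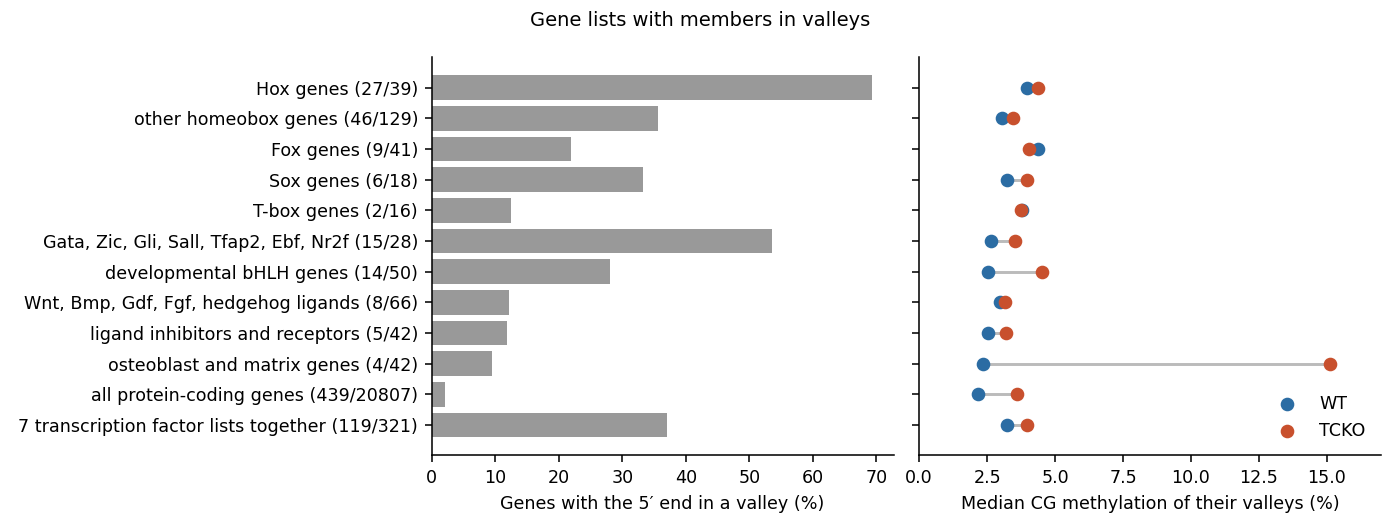
Left, share (%) of each gene list with the annotated 5′ end in a valley (members in valleys and list size in brackets), and right, the median CG methylation (%) of these valleys in WT and TCKO. The Hox list stands at 69.2% with medians of 3.98% and 4.37%, and the osteoblast and matrix list at 9.52% with medians of 2.34% and 15.1%.

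The edges, which are the 5 kb outside each valley end without parts of other valleys, were far more methylated than the valleys. Their pooled level was 47.6% in WT (47.5 to 47.7; 654136 calls) and 55.0% in TCKO (54.9 to 55.1; 544481 calls), a difference of 7.41 points. All testable autosomal windows, pooled, went from 71.0% to 77.7%, a rise of similar size from a higher WT level. The edges were higher in TCKO for 455 valleys (84.1%), and 25 valleys had an edge difference over 20 points. Like counts for regions away from valleys are not given, so these counts are not read as particular to edges. In 100 bp steps, the difference was 0.46 points at about 2 kb inside the valley, 1.81 points at 1 kb inside, 5.12 points in the second step before the end and 5.92 points in the first step outside. Farther out to 5 kb it ranged from 4.27 to 10.1 points.

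**Figure D5:**
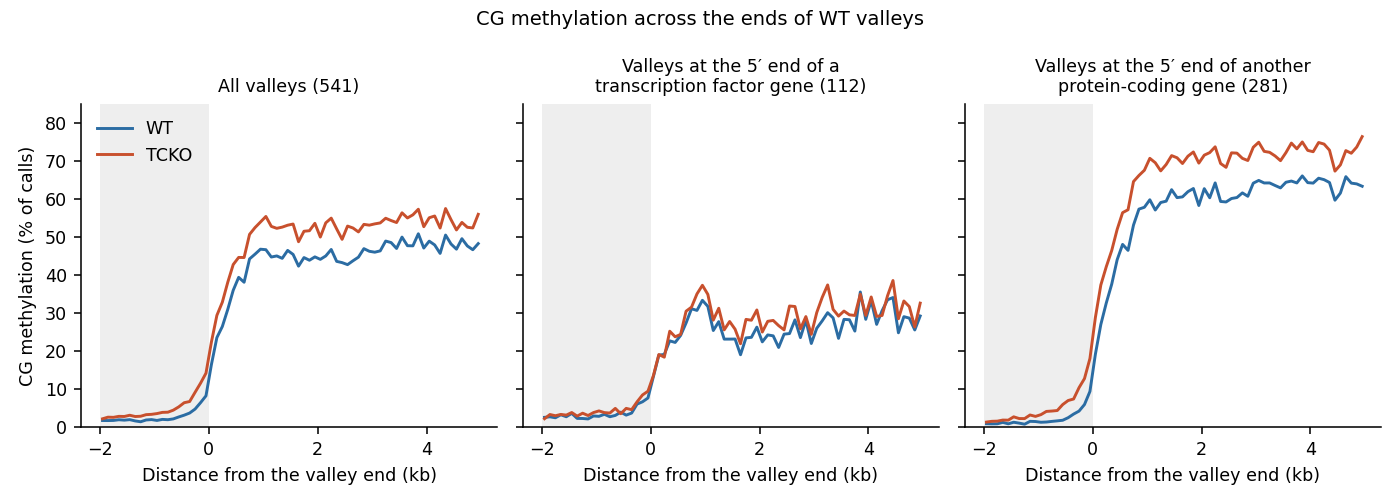
CG methylation (%) in 100 bp steps by distance from the valley end (kb), with the valley in grey, in WT and TCKO, for all valleys and for valleys at the 5′ end of transcription factor genes and of other protein-coding genes. Both libraries rise within 1 kb of the end, and the TCKO line lies above the WT line by 5.92 points in the first step outside for all valleys.

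Among testable edge windows, 476 of 3778 (12.6%) had a called gain and 11 a called loss, beside the 9.29% and 0.129% of all testable windows. By distance the share with a gain was 14.0%, 15.5%, 11.9%, 10.3% and 10.9% from the first to the fifth window outside. The first window outside is above the limit in WT, or lacks calls, by choice. From the second to the fifth, 356 of 2920 windows (12.2%) had a gain. Read at like WT levels, the share was lower than among all windows at low levels and higher at a middle level. It was 17.3% of 312 edge windows over 10 to 25% in WT beside 46.3% of all windows at that level, and 31.0% of 458 beside 50.0% over 25 to 50%. It was 15.2% of 928 beside 11.7% over 50 to 75%, and 0% of 879 beside 0.047% over 75 to 100%.

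The edges of the listed transcription factor valleys differed little between the libraries. The median edge went from 28.3% to 30.9% in their valleys and from 60.7% to 72.3% in valleys of other protein-coding genes. Where a valley had a single 5′ end, or several on the same strand, the downstream edge of other genes read 55.5% in WT and 67.2% in TCKO, a difference of 11.7 points, and the upstream edge read 61.8% and 69.0%, a difference of 7.22 points. For transcription factor genes the differences were 3.98 points downstream and 2.96 upstream. The largest edge differences were at Ahnak, at 36.7 points, and at the valley of the noncoding gene 3110039I08Rik with Mir125b-1, at 36.1 points. The valley inside Dnm3, over the antisense gene Dnm3os with Mir199a-2, had 34.5 points, Col1a2 31.7 and an internal valley of Zfhx3 29.2. Mir125b-1 and Mir199a-2 code for microRNAs of mesenchymal cells.

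The rule gave 404 valleys of 2179 kb in TCKO, the longest of 16 kb. The shared length was 1916 kb, which was 65.7% of the WT valley length and 87.9% of the TCKO valley length. Of the 1002 WT valley windows outside TCKO valleys, 566 were still low in TCKO but in a run under 4 kb. A further 86 had too few cytosines or calls in TCKO, and 350 exceeded 10%. Of the WT valleys, 362 (66.9%) overlapped a TCKO valley, 248 lay wholly inside one and 6 were split. The remaining 179 overlapped none, and 128 of these were 4 kb long. In 154 of the 179 a window exceeded 10% in TCKO, and in 25 the failing windows only lacked cytosines or calls. All 29 valleys of 10 kb or more overlapped a TCKO valley, and the share was 52.2% for valleys of 4 kb. It was 84.8% for transcription factor valleys and 57.7% for those of other protein-coding genes. The other way round, 40 TCKO valleys overlapped no WT valley. Of testable WT valley windows, 350 (12.4%) exceeded 10% in TCKO and 81 (2.86%) exceeded 25%, and of 2168 testable TCKO valley windows, 103 (4.75%) exceeded 10% in WT and 2 (0.092%) exceeded 25%. Both lists were chosen by the level in 1 library, so the 2 shares are the mirrored descriptions of the same step.

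Several genes that the study discusses had no valley. Sp7, Alpl, Bglap, Ctsk, Fgf7, Clec11a and Cys1 overlapped none, nor did Tet1, Tet2 or Tet3. The window with the annotated 5′ end was above the limit in WT for Sp7 (66.7%), Bglap (67.6%), Alpl (23.6%) and Clec11a (29.6%). The Sp7 and Bglap windows had 39 and 34 WT calls, under the minimum of 40 as well. For Ctsk and Fgf7 it was a low run of a single window, which read 0.787% and 9.21% in WT and 46.9% and 76.0% in TCKO. For Cys1 it was in a low run of 3 kb that read 2.52% and 4.22% at the 5′ end. The annotated Runx2 5′ end lay in a low run of 2 kb, with 4.19% in WT and 16.8% in TCKO.

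The limits of the rule cut through a continuous range. Of valley windows, 195 read between 8 and 10% in WT, at medians of 8.98% (WT) and 10.9% (TCKO). Of the first windows outside, 82 read over 10 to 12%, with medians of 11.1% and 12.2%, and 134 of 1061 had too few cytosines or calls in WT. Low runs of 3 kb, just under the length limit, numbered 943, and the median level of their windows in TCKO was 2.40%, beside 1.83% in valleys of 4 kb.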

How the data were processed

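WGBS of 1 WT and 1 TCKO library was analysed. The authors aligned reads to GRCm38 with BSMAP 2.74, allowed up to 2 mismatches and kept uniquely mapped reads. The deposited values are counts of methylated calls and of all calls at each CG position of either strand, and they were not normalized. Removal of duplicate reads and the conversion rate are not given in the sources used here. Bisulfite reads do not separate 5mC from 5hmC.

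Calls were pooled in 1 kb windows of the 19 autosomes. Valleys, their edges (5 kb) and gene overlaps were found with GRCm38 and GENCODE M21. A gene's 5′ end is the start of its annotated extent. Windows with at least 10 CG cytosines and 40 calls in each library were compared between libraries by Fisher's exact test (2-sided), adjusted by Benjamini-Hochberg over all such windows, and the code was tested on simulated data. With 1 library per genotype, the test compares libraries, and intervals cover counting error only. Both take each call as independent, which calls of the same read are not. The precision of a level depends on the number of calls in its own valley, edge, window or stretch.

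The valleys and gene lists were chosen with earlier results of these data known. Genes were named by a rule: those of the 6 longest valleys, the 6 with the largest difference, the 4 of at least 10 kb with the lowest difference and the 5 with the largest edge difference, the genes the study discusses, and up to 4 per list. Irx2, Irx4, Id3, Twist1, Fzd7, the Hox clusters and the genes under other observations were named after their values were seen.

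Alternatives changed the level, call, cytosine and length limits, bridging, window offset, strand, averaging, deep cytosines, edge width and the call rule. Leaving out the 7 deep valleys was chosen after seeing the data. Other chromosomes and the other assays were not analysed here. Python 3.11.15, numpy 2.4.6, pandas 2.3.3, scipy 1.17.1, numba 0.67.0 and matplotlib 3.10.9 were used.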

Additional observations from a re-analysis of the deposited data

How the results depend on the processing

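TCKO remained the higher library inside WT valleys and in their edges under every alternative run. Inside differences were 1.17 to 2.41 points and edge differences were 6.69 to 8.08 points. Each of these runs still chose the valleys by a low WT level, which favours a higher TCKO level inside. Agreement among them therefore does not show that the inside difference is free of the choice. Valleys chosen from the TCKO library read 2.86% in TCKO and 2.83% in WT. The number of WT valleys ranged from 273 to 1484. Differences and shared lengths that moved beyond counting error, and numbers of valleys that moved by over 1.5 times from 541, were as follows. A level limit of 5% gave 304 valleys, 1.17 points inside, 7.64 at the edges and 55.9% of length shared with TCKO valleys, and a limit of 15% gave 2.13 points inside and 67.5% shared. A minimum of 20 calls gave 68.2% shared, and one of 80 calls gave 1.49 points, 7.0 points and 52.7%. A minimum of 20 CG cytosines gave 1.21 points, 6.93 points and 67.5%. Runs of 3 kb or more gave 1484 valleys, 2.41 points, 8.08 points and 62.7%, and runs of 5 kb or more gave 273 valleys, 1.40 points, 6.69 points and 62.9%. With 1 failing window allowed inside a run, the values were 2.14 points, 7.64 points and 68.3%. With the plus strand choosing and the minus strand measuring, they were 1.49 points inside and 53.4% shared. The mean of cytosines with at least 4 calls gave 2.23 points inside and 47.0% shared. Edges of 2 kb and 10 kb differed by 7.17 and 7.06 points. A limit of 40 points left 90 called edge windows of 476. The number of valleys moved by less in the other settings, to 723 at a limit of 15%, 438 at 80 calls, 472 at 20 CG cytosines, 659 with 1 failing window and 395 with the mean of cytosines. The causes of these moves were not tested. Windows shifted by 500 bp, removal of the deepest cytosines and removal of the 7 deep valleys moved none of the differences or the shared length beyond counting error and gave 526, 540 and 534 valleys.

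No paired analysis was possible because each genotype had 1 library, and leaving out a replicate was not an option. Single windows rest on as few as 40 calls in each library where tested, and 134 of 1061 first windows outside a valley had too few cytosines or calls in WT.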

Other observations

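A microRNA gene lay in 16 valleys, with a median level of 2.33% in WT and 4.36% in TCKO. Of these, 5 differed by at least 5 points, beside 66 of all 541 valleys, at Mir125b-1 (1.60% and 15.1%), Mirlet7i (0.325% and 8.12%), Mir199a-2 (1.83% and 8.84%), Mir22 (2.54% and 9.09%) and Mir1894 (2.13% and 8.41%). The Mir125b-1 and Mir199a-2 valleys were among the 7 deep valleys. Of microRNAs of the nervous system, Mir9-3 read 2.09% and 2.26%, Mir124a-1 1.65% and 3.19%, and Mir124a-3 3.46% and 3.03%. Of those in the Hox clusters, Mir10a read 4.61% and 5.73%, Mir196b 3.37% and 4.32%, Mir10b 5.67% and 4.41%, and Mir615 4.58% and 2.86%.

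Valleys also lay over abundant nuclear long noncoding RNA genes on chromosome 19. The 8 kb valley at Malat1 read 1.06% (0.70 to 1.62) in WT and 9.03% (7.69 to 10.6) in TCKO, and the 4 kb valley at Neat1 read 2.76% (1.75 to 4.31) and 20.1% (15.8 to 25.2). Among protein-coding genes outside the lists, the valley of Igfbp4, which codes for a binding protein of insulin-like growth factors, read 5.68% and 26.0%, and the valley of Klf6, a zinc finger transcription factor, read 0.51% and 13.2%. Zfhx3 held a pair of valleys close to each other, a 7 kb valley at 1.39% and 5.94% and a 5 kb valley at 3.49% and 23.5%.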
